A study of Mus musculus with 23 samples.

Results

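Coding-exon sites were the single-nucleotide crosslink sites of CTCF iCLIP2 that lay in a coding sequence (CDS) of a GENCODE protein-coding transcript on the same strand, on chromosomes 1 to 19, X and Y. They numbered 473675 of the 1346716 sites in 6 lists, beside 194951 sites in 3′ UTRs, 97303 in 5′ UTRs and 439126 in introns. The lists came from mouse E14 embryonic stem cells (ESC) and from neural progenitor cells (NPC) made from them in 2 days. In every group endogenous CTCF, fused to mAID-eGFP, was degraded with 1 µM 5-Ph-IAA through OsTIR1(F74G) at Rosa26, while 1 µg/mL doxycycline induced a Flag-Halo-tagged rescue CTCF from the Tigre locus, both for 24 hours. Rescue CTCF was wild-type (WT) or had a partial deletion of zinc finger 1 (ΔZF1), each line being 1 clone. UV-treated cells received 400 mJ/cm2 at 254 nm. The 2 control groups without UV (noXL) both came from the WT line, a ΔZF1 control without UV was not analysed here, and a difference between clones and a difference between rescue proteins cannot be told apart. Each group had 4 libraries except NPC WT, which had 3, and the libraries of a group were merged before sites were called. All comparisons are therefore between single lists, with no replicate check and no test. The 95% Wilson or Newcombe intervals given cover counting error only. The read depth behind each list was unknown here.

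Messenger RNA leaves the nucleus after its introns are removed, and its CDS is then read in codons of consecutive bases from the start to the stop codon, flanked by the 5′ and 3′ UTRs. In iCLIP, UV light joins a protein to the RNA it touches, and reverse transcriptase tends to stop at the joined nucleotide, so a site marks the base beside which cDNAs ended. UV crosslinking favours uridine. CTCF is known for its zinc fingers that bind DNA at loop anchors, and it also binds RNA, with zinc finger 1 among the parts involved. Peaks of cDNA ends can also arise without UV, which is what the noXL lists measure.

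The sequences below show what the most strongly scored recurrent sites looked like. The first 10 were called at the same nucleotide in all 4 UV lists and in neither noXL list, taken in order of their score in ESC WT with at most 1 per gene. Each window has 12 bases on either side of the site within 1 coding exon, read from the GRCm38 (mm10) genome on the gene's strand, with the called nucleotide in capitals.
Rpl9, chr5:65388614-65388638, minus strand: atcaggaagtttTtggacggcatct
Cox4i1, chr8:120673325-120673349, plus strand: ctcgttctgattTgggagaagagct
Rpl38, chr11:114671783-114671807, plus strand: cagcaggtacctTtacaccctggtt
Rps16, chr7:28352386-28352410, plus strand: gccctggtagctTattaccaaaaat
Cox7b, chrX:106019676-106019700, plus strand: catcttctgtgtTtctacatggaca
Rpl30, chr15:34441281-34441305, minus strand: tggcaataatatTgaactgggcaca
Hnrnpl, chr7:28810924-28810948, plus strand: tgctgccccgggCggagaagcggcg
Rpl31, chr1:39370050-39370074, plus strand: aattcggaagttTgccatgaaggaa
Rps2, chr17:24720664-24720688, plus strand: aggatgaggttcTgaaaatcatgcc
Rps7, chr12:28634273-28634297, minus strand: agcttaaatcttTccagaaaatcca
Of these 10, 9 were called on a uridine (written T) and 8 of the 9 had another uridine just before it. Hnrnpl, which encodes a splicing regulator, was the exception, with a C in a GC-rich window. The genes were 7 cytosolic ribosomal protein genes, Cox4i1 and Cox7b, which encode subunits of mitochondrial cytochrome c oxidase, and Hnrnpl. Ribosomal protein genes have processed pseudogenes, and reads from near-identical copies could have been split in the mapping. The Rpl9 site scored 338 in ESC WT, 92.0 in ΔZF1, 216 in NPC WT and 79.4 in ΔZF1. The Rps16 site, on the first base of a UAU tyrosine codon, scored 242, 119, 187 and 143 in the same order.
The next 5 were called at the same nucleotide in all 6 lists, those without UV included, in the same order of score.
Rgs9, chr11:109246529-109246553, minus strand: caagatgcgagtGgagagatgggct
Rspo1, chr4:125007646-125007670, plus strand: ggtttccggaagGgatcggaagagc
Asna1, chr8:85025229-85025253, minus strand: gtggccgggtggGgggttgaagcag
Taf15, chr11:83488994-83489018, plus strand: gagggcgtggggGatatgacaagga
Flna, chrX:74246402-74246426, minus strand: ctcactcccgctGtggccagagtgc
All 5 of these were called on a G. The sites in Rspo1, which encodes a secreted Wnt agonist, and Rgs9, a G-protein signalling regulator, had the highest scores. In Rspo1 it was the only coding-exon site of the gene in each of the 6 lists, with a score of 180 in ESC WT and of 708, the highest score in the files, in NPC WT and in both noXL lists. The Rspo1 site thus did not depend on UV, and whether its reads came from RNA of the gene was not tested. Rgs9 held 2, 2, 4, 2, 1 and 1 coding-exon sites in ESC WT, ESC ΔZF1, ESC noXL, NPC WT, NPC ΔZF1 and NPC noXL.

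Coding exons held 155731 sites in ESC WT, 82706 in ΔZF1 and 50865 in noXL. In NPC they held 99418 sites in WT, 52609 in ΔZF1 and 32346 in noXL. WT lists had 1.88 times the coding-exon sites of ΔZF1 in ESC (95% interval 1.87 to 1.90) and 1.89 times in NPC (1.87 to 1.91). Against noXL the ratio was 3.06 (3.03 to 3.09) in ESC and 3.07 (3.04 to 3.11) in NPC. Depth and binding cannot be told apart in list sizes, so the share of each list is given beside them. Coding exons took 34.5% of all sites in ESC WT (34.4 to 34.7), 35.7% in ΔZF1 (35.5 to 35.9) and 32.0% in noXL (31.8 to 32.2). In NPC the shares were 41.6% in WT (41.4 to 41.8), 33.2% in ΔZF1 (33.0 to 33.4) and 30.2% in noXL (29.9 to 30.4). The share was thus 1.19 points lower in WT than in ΔZF1 in ESC and 8.36 points higher in NPC. With only sites at or above the median score the ESC difference turned to 1.75 points higher in WT, and it was -2.42 points with neighbouring sites merged and -0.545 points among uridine sites only. The score minimum was the same for all lists, but the median coding-exon score was 2.72, 2.67 and 4.04 in ESC WT, ΔZF1 and noXL. In NPC it was 2.62, 4.05 and 3.54, so the minimum kept a different part of each list. Sites outside coding exons were 1.98 times as many in WT as in ΔZF1 in ESC and 1.32 times as many in NPC.

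Per kb of the same 7310 representative transcripts, the CDS held 10.8 sites in ESC WT, against 16.7 in the 5′ UTR and 5.55 in the 3′ UTR. This order, 5′ UTR above CDS above 3′ UTR, held in all 6 lists. The CDS density was between 1.95 and 2.40 times that of the 3′ UTR and between 0.635 and 0.953 times that of the 5′ UTR, with the highest 5′ UTR ratio in NPC ΔZF1.

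The base under the site differed between the lists. Uridine made up 60.0% of coding-exon sites in ESC WT, 47.8% in ΔZF1 and 23.9% in noXL. In NPC it made up 66.4% in WT, 56.8% in ΔZF1 and 22.8% in noXL. The CDSs of the same genes, weighted by their sites, held between 21.8% and 22.4% uridine. Uridine was therefore 2.68 times its composition in ESC WT, 2.17 in ΔZF1, 3.00 in NPC WT and 2.57 in ΔZF1, and 1.09 and 1.04 in the noXL lists of ESC and NPC. The difference between WT and ΔZF1 was 12.2 points in ESC (11.7 to 12.6) and 9.56 points in NPC (9.04 to 10.1), the latter 14.7 points (14.0 to 15.4) with the score minimum. Counted apart, uridine sites were 2.36 times as many in WT as in ΔZF1 in ESC and 2.21 times in NPC, while sites on the other bases were 1.44 and 1.47 times as many. Against noXL, uridine sites were 7.67 times as many in ESC WT and 8.95 times in NPC WT, and sites on the other bases 1.61 and 1.34 times. The noXL lists leaned to other bases, A in ESC (30.7%) and C in NPC (31.6%).

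**Figure D1:**
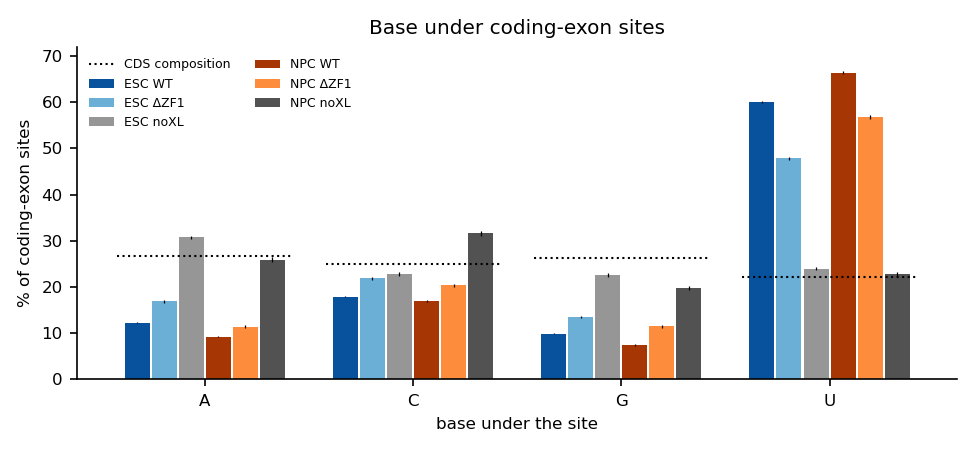
Share of coding-exon sites on each base (y axis, %) in the 6 lists, with 95% Wilson intervals as thin lines and the site-weighted base composition of the same CDSs, averaged over lists, as dotted lines. The U bars reach 66.4% in NPC WT and 60.0% in ESC WT, and lie near the dotted line in both noXL lists.

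The uridine share was higher among high scores in the UV lists. From the lowest to the highest of 5 score classes of equal size it went from 50.5% to 72.2% in ESC WT, from 45.0% to 55.6% in ΔZF1, from 57.0% to 80.3% in NPC WT and from 53.0% to 63.0% in ΔZF1. The noXL lists stayed between 22.6% and 24.7% in all 5 score classes. Compared with other parts of the RNA, the ESC WT share in coding exons (60.0%) was below that in 3′ UTRs (71.1%) and introns (62.4%) and above that in 5′ UTRs (35.3%). NPC WT had the same order for 3′ UTRs (74.0%) and 5′ UTRs (41.3%), but its share in coding exons (66.4%, 66.1 to 66.6) was above that in introns (64.3%, 63.9 to 64.7). Both ΔZF1 lists had lower shares in coding exons than in introns, 47.8% against 51.4% in ESC and 56.8% against 60.7% in NPC.

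Uridine sites lay in runs of uridines more often in the UV lists than composition gives. In ESC WT 38.8% of uridine sites were in a run of 3 or more and 27.3% were single, whereas 15.6% of the uridines of these CDSs were in such runs and 59.3% were single. ESC ΔZF1 had 32.3% and NPC ΔZF1 31.9% in runs of 3 or more, NPC WT 40.4%, and the noXL lists 15.7% and 15.3%. The base just before the site was uridine in 49.2% of ESC WT sites, and the base just after it in 29.7%. Among pentamers centred on the site, UUUGC led in ESC WT at 12.5 times its frequency in the CDSs, UUUGU in NPC WT at 16.3 times and in ΔZF1 at 12.9 times, and UUUAC in ESC ΔZF1 at 9.09 times. In noXL the leading pentamers reached 2.64 times (CAGGU, ESC) and 4.25 times (UACAU, NPC).

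Recurrence across lists went with base. Of the 318171 positions called in 1 UV list and no noXL list, 53.7% were uridine. The share was 83.4% of 25311 positions called in 2 UV lists, 91.7% of 3863 in 3 and 92.0% of 414 in all 4 (89.0 to 94.3). Positions also called in both noXL lists had low uridine shares whatever the number of UV lists. Of the 32 called in all 6 lists, 15.6% were uridine (6.86 to 31.8) and 75.0% were G. The 414 positions lay in 339 genes, and 38 of them (9.18%) were in ribosomal protein genes, which held 0.785% of ESC WT coding-exon sites. These genes held 28.7 ESC WT sites per kb of CDS, against 10.8 over the representative transcripts. The part of site density in recurrence was not tested.

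**Figure D2:**
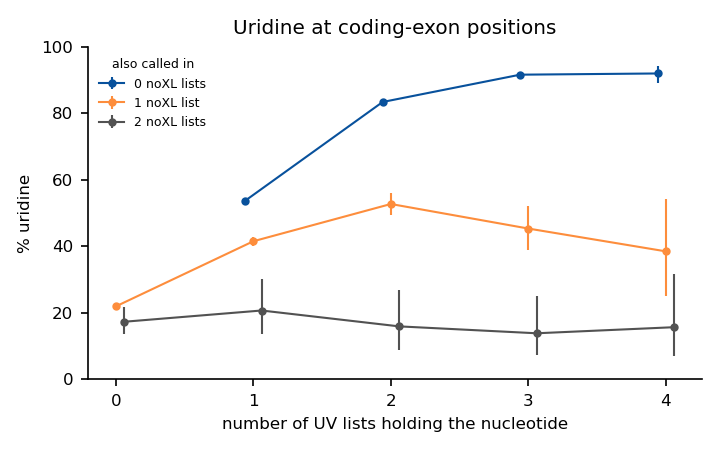
Percent of positions that were uridine (y axis) by the number of UV lists that held the nucleotide (x axis), drawn apart for positions in 0, 1 or 2 noXL lists, with 95% Wilson intervals. The line for 0 noXL lists climbs from 53.7% to 92.0%, and the line for 2 noXL lists stays between 13.8% and 20.7%.

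Few sites were shared at the exact nucleotide. Of ESC WT coding-exon sites, 10.1% were at a nucleotide called in NPC WT, 5.55% in ESC ΔZF1 and 1.50% in noXL. Within 5 nt the shares were 23.0%, 17.1% and 7.69%. The exact overlap was 16.3 times the level per nucleotide found 20 to 50 nt away for NPC WT, 10.2 times for ESC ΔZF1 and 4.43 times for ESC noXL. From the side of ΔZF1, 10.5% of ESC ΔZF1 sites were at a nucleotide of ESC WT and 8.02% of NPC ΔZF1 sites at one of NPC WT, while 2.44% of ESC ΔZF1 sites were at one of NPC ΔZF1.

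Along the CDS, the last 10% held fewer sites than the first in all 6 lists, and the first held the most in all but ESC noXL. The first 10% of the CDS held 12.5% of sites in ESC WT (12.4 to 12.7), 11.7% in ΔZF1 and 10.9% in noXL. In NPC it held 12.9% in WT, 12.2% in ΔZF1 and 11.7% in noXL. The last 10% held between 8.71% and 9.17%. WT exceeded ΔZF1 in the first 10% by 0.800 points in ESC (0.524 to 1.07) and by 0.637 points in NPC (0.285 to 0.986), and exceeded noXL by 1.61 and 1.18 points. With the score minimum the differences from ΔZF1 were 1.33 and 1.24 points, and with equal weight of genes they were 1.23 and 1.24 points. The difference from noXL was 2.51 points in ESC with the score minimum and 2.46 points in NPC with equal weight of genes. The tilt was steeper in long CDSs: in ESC WT the first 10% held 10.4% of sites in CDSs under 1 kb and 14.0% in those over 3 kb.

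**Figure D3:**
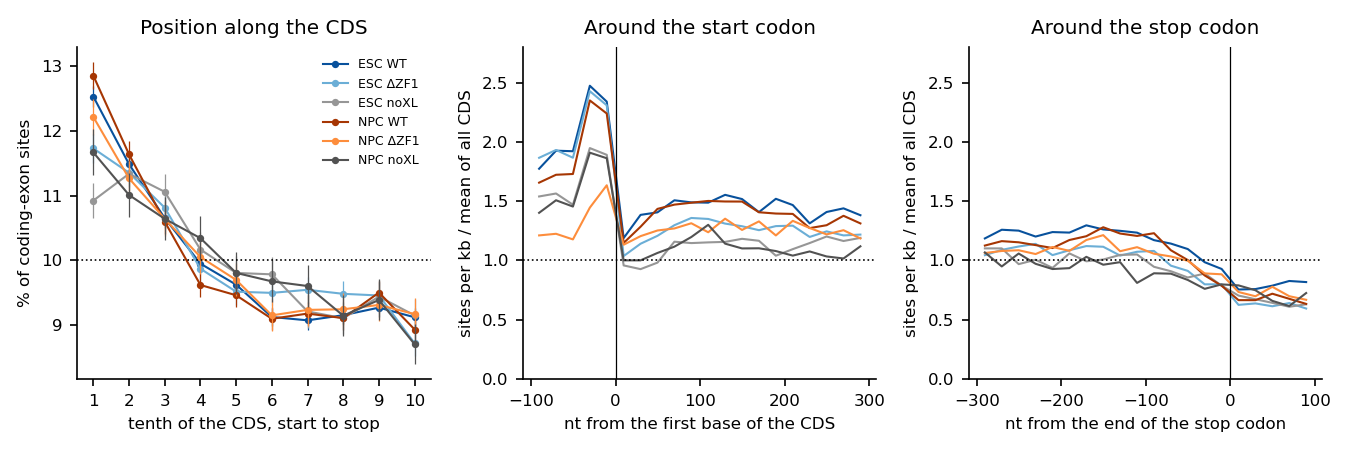
Left, percent of coding-exon sites (y axis) in each of 10 equal parts of the CDS with 95% Wilson intervals, the dotted line marking an even spread. Middle and right, sites per kb relative to the mean of all CDS bases around the start and stop codons; density falls from 2.34 to 1.19 across the start codon in ESC WT.

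Around the start codon of these transcripts, the density in ESC WT was 2.34 times the CDS mean in the last 20 nt of the 5′ UTR and 1.19 times in the first 20 nt of the CDS, and it returned to 1.51 times at 60 to 79 nt. Before the stop codon it declined from 1.30 times at -180 to -161 nt to 0.929 times in the last 20 nt, and was 0.755 times in the first 20 nt of the 3′ UTR. The ESC noXL values at the same 2 steps of the start codon were 1.89 and 0.958.

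The last nucleotide of an exon took its highest shares in the lists without UV. It held 2598 of the coding-exon sites in ESC noXL, 5.11% (4.92 to 5.30), and 1466 in NPC noXL, 4.53% (4.31 to 4.76). The share was 3.02% in ESC ΔZF1 (2494 sites), 1.73% in WT (2696), 1.00% in NPC ΔZF1 (528) and 0.751% in WT (747). In number, these sites in ESC were thus similar with and without UV, while all coding-exon sites were more numerous with UV, and in NPC they were fewer with UV. Against the share of CDS length at that nucleotide this was 8.25 times in ESC noXL, 7.50 in NPC noXL, 4.88 in ESC ΔZF1, 2.70 in WT, 1.63 in NPC ΔZF1 and 1.19 in WT. Between 76.8% and 83.1% of these sites were on G, which is the usual last base of an exon. The bases before it held few sites: the base next to it held between 0.0861 and 0.556 times its share of length, and the third base from the end between 0.0255 and 0.200 times. The part of spliced mapping in this was not tested. At the other side of the junction, bases 3 to 6 of an exon held 1.48 to 1.59 times their share in ESC WT and 0.994 to 1.17 times in noXL.

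**Figure D4:**
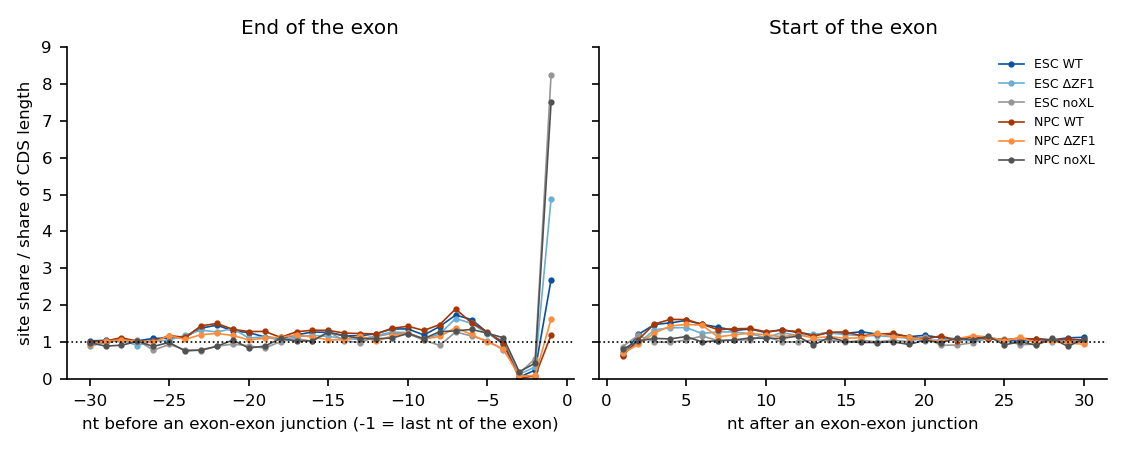
Share of sites divided by share of CDS length (y axis) at each nucleotide before (left) and after (right) exon-exon junctions in the 6 lists. The last nucleotide of the exon reaches 8.25 in ESC noXL and 1.19 in NPC WT, and the third base from the end lies between 0.0255 and 0.200.

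By codon position the lists differed little. The third position held 34.9% of sites in ESC WT, 34.3% in ΔZF1, 33.4% in noXL, 36.0% in NPC WT, 36.4% in ΔZF1 and 34.6% in noXL. The difference of WT from ΔZF1 was 0.624 points in ESC (0.222 to 1.03) and -0.433 points in NPC (-0.942 to 0.0759), so the NPC interval included 0. The NPC difference was -1.13 points (-1.80 to -0.471) among uridine sites only, -0.0707 with the score minimum and -0.0235 with neighbouring sites merged. The ESC difference was 0.574 points with the score minimum, where its interval (-0.022 to 1.17) included 0, and 0.317 with equal weight of genes. Given only the base shares of each list and the codon composition of its CDSs, the third position would have held 34.8% in ESC WT and 35.0% in NPC WT. The second position held less than this calculation gives in all 6 lists, by 3.12 points in ESC WT and 1.68 points in NPC noXL. Among uridine sites of ESC WT, 27.2% were on the first, 36.2% on the second and 36.7% on the third position, against 24.7%, 39.4% and 35.9% of the uridines of the CDSs. In the UV lists uridines were taken most at first positions in ESC (2.95 times composition in WT) and in NPC WT (3.25 times), and at the third positions in NPC ΔZF1 (2.74 times).

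The codon most often under a site, relative to its frequency, was UUU for phenylalanine in all 4 UV lists. It held 12.8% of ESC WT sites, 7.09 times its share of codons, 8.38% in ESC ΔZF1 (4.88 times), 14.8% in NPC WT (8.52 times) and 9.93% in ΔZF1 (5.73 times). In noXL it held 1.87% in ESC and 1.81% in NPC, 1.09 times its share in both. Phenylalanine codons together took 18.6% of ESC WT and 21.7% of NPC WT sites, and 3.56% and 3.65% of noXL sites in ESC and NPC. These codons are rich in uridine, and no level from base shares was computed for codons. A preference for uridine and a preference for a codon cannot be told apart here. UUG and UUA for leucine followed in ESC WT at 3.94 and 3.86 times, and GGC for glycine was lowest at 0.24 times. In noXL the leading codon was CAA for glutamine, at 1.54 times in ESC and 1.76 in NPC.

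Coding-exon sites were spread over many genes. In ESC WT 7584 genes had at least 1 and 6175 at least 5, in ESC ΔZF1 7191 and 4863, and in noXL 6962 and 3468. In NPC WT they were 7785 and 5525, in NPC ΔZF1 7302 and 3759, and in noXL 6412 and 2376. The 10 genes with most sites held between 1.82% and 2.14% of a list. These were genes with long CDSs, with a median of 15119 nt among the 10 of ESC WT. Dst, which encodes the cytoskeletal linker dystonin (chr1:33908225-34308661), had the most in 5 lists, with 413, 216 and 164 sites in ESC WT, ΔZF1 and noXL and 299, 136 and 69 in NPC. Macf1, a microtubule-actin crosslinking factor, had 405, 210, 136, 261, 130 and 77 in the same order. Ubr4, a ubiquitin ligase, led NPC noXL with 86 sites and had 315, 170 and 99 in ESC and 196 and 110 in NPC WT and ΔZF1.

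Per kb of CDS the order of genes was different. Among genes with at least 1 kb of CDS and 30 sites in the list, a rule chosen after the counts were seen to go with length, Mest, an imprinted gene, led ESC WT with 44.2 sites per kb and had 15.5 in ESC ΔZF1 and 4.90 in noXL. In NPC it had 31.1, 4.09 and 1.64. Hnrnpk, which encodes an RNA-binding protein, led NPC WT with 32.9 per kb and had 6.16 in NPC ΔZF1 and 1.37 in noXL. Mars, methionyl-tRNA synthetase, led ESC ΔZF1 with 19.05 per kb, close to its 20.5 in ESC WT.

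For each gene the ratio of coding-exon sites between 2 lists was scaled to the lists' coding-exon totals, with 1 site added to each count and at least 20 sites in the 2 lists together. Of the genes with a site, 4045 could be compared between ESC ΔZF1 and ESC WT. Before scaling 91.6% of them had fewer sites in ΔZF1. After scaling 257 genes (6.35%) were at least 1 log2 unit higher in ΔZF1 and 308 (7.61%) at least 1 lower. With all sites of the gene body in place of coding-exon sites, 6.66% of 6084 genes were higher and 5.69% lower, so the share of genes past the limit was of like size. In NPC 129 of 2601 genes (4.96%) were higher in ΔZF1 and 187 (7.19%) lower, against 5.73% and 7.45% of 4995 genes by all sites. Scaled to all genic sites instead, 40 were higher and 341 lower in NPC, and 274 and 267 in ESC. With a minimum of 50 sites, 5 were higher and 22 lower of 545 in NPC, and 47 and 58 of 1366 in ESC. With a minimum of 10 sites, 377 were higher and 476 lower of 4757 in NPC, and 503 and 601 of 5709 in ESC. Sites outside coding exons of the same genes could be compared for 247 of the ESC genes lower by coding-exon sites, and 144 of these had the same sign (median -0.14 against -1.29 by coding-exon sites). Of 160 higher genes 119 had the same sign (median 0.43 against 1.28), and of 2727 genes within the limits 1471.

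Among genes with at least 50 coding-exon sites in both lists together, genes with the highest and lowest ratios of ΔZF1 to WT were taken in each cell type. Dnah8, an axonemal dynein (chr17:30624354-30877365), had 86 coding-exon sites in ESC ΔZF1 and 2 in WT, 5 in noXL, and 1, 2 and 3 in NPC WT, ΔZF1 and noXL, a scaled log2 ratio of 5.77. It also had 23 sites outside coding exons in ESC ΔZF1 and 0 in the other 5 lists. Wdfy3, an autophagy adaptor, had 40 against 10 (2.81) and Ahdc1 44 against 15 (2.40). Mia3, which helps load collagen for secretion, had 2 sites in ESC ΔZF1 against 54 in WT (-3.28) but 14 against 26 in NPC (0.07). Cpd, carboxypeptidase D, had 3 against 48 in ESC (-2.70) and 33 against 51 in NPC (0.31), and Ppp4r3b 5 against 50 (-2.17). In NPC the low ratios included Itgb1, the β1 integrin, with 4 against 51 (-2.46), and Txnrd1, thioredoxin reductase, with 7 against 45 (-1.61). The highest were Col4a1, a basement membrane collagen, with 50 against 33 (1.50), Nes, which encodes nestin, with 31 against 25 (1.22) and Ube4b with 33 against 30 (1.05).

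Chromosome 11 stood apart in ΔZF1. Its coding-exon sites were 2.44 times as many in WT as in ΔZF1 in ESC, where the other chromosomes but Y lay between 1.68 and 2.04, and 2.46 times in NPC, where they lay between 1.73 and 1.93. Between WT and noXL chromosome 11 was within the range of the others, at 3.14 in ESC and 3.16 in NPC. Of its 393 compared genes in ESC, 58 (14.8%) were lower in ΔZF1 and 4 higher, against 6.85% and 6.93% on the other chromosomes, and in NPC 37 of 251 (14.7%) were lower and 2 higher, against 6.38% and 5.40% of 2350. Cpd and Ppp4r3b lie on it. With chromosome 11 left out, coding-exon sites were 1.83 times as many in WT in ESC and 1.84 times in NPC. The cause was not tested.

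Between cell types, WT lists compared 4271 genes, of which 286 (6.7%) were higher in NPC and 350 (8.19%) lower, or 423 and 233 when scaled to all genic sites. By all sites of the gene body the shares were larger, 11.9% and 10.3% of 6310 genes. Flnc, filamin C, had 120 coding-exon sites in NPC WT, 77 in ΔZF1 and 34 in noXL and none in the 3 ESC lists. Lama1, laminin α1, had 181, 49 and 52 in ESC and 0, 12 and 1 in NPC. Adgrl2 had 64 sites in NPC WT against 4 in ESC WT and Notch3, a Notch receptor, 61 against 5, whereas Fryl had 0 against 87 and Zfhx2 0 against 68. The noXL lists differed in the same direction between cell types for Flnc, Lama1, Adgrl2, Notch3, Fryl and Zfhx2. RNA levels were not measured in these lists, and their part in these differences was not tested.

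Marker genes went with the labels in part. The 10 pluripotency markers held 242, 71 and 45 coding-exon sites in ESC WT, ΔZF1 and noXL and 28, 18 and 16 in NPC. Klf4, Klf2, Esrrb and Tfcp2l1 had none in the NPC lists, while Pou5f1, which encodes Oct4, kept 11 sites in NPC WT against 16 in ESC WT. The 10 formative and neural markers held 2, 8 and 6 sites in ESC and 86, 58 and 31 in NPC, from Nes, Dnmt3b, Zic2 and Pou3f1. Sox1, Pax6, Hes5, Zic1, Otx2 and Fgf5 had no coding-exon site in any list, and neither did the 6 markers of endoderm, mesoderm and trophectoderm.

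Counts of groups below use the scaling to coding-exon totals, and the medians over all genes were -0.0045 in ESC and 0.07 in NPC. Gene groups differed in how their coding-exon sites were shared among lists. The 81 cytosolic ribosomal protein genes with a site held 0.785% of coding-exon sites in ESC WT (0.743 to 0.830), 0.400% in ΔZF1 and 0.102% in noXL, and 0.752%, 0.213% and 0.179% in NPC. Per kb of CDS they held 28.7, 7.77 and 1.22 sites in ESC. Of the 32 that could be compared in ESC, 12 were lower in ΔZF1 and 0 higher (median log2 -0.76). Of 6 in NPC, 5 were lower (median -1.57). Over all genes 7.61% and 7.19% were lower. The group held 1223 sites in ESC WT and 331 in ΔZF1, and 748 and 112 in NPC. Its members thus met the minimum of sites in both lists together mostly through WT. The counts of lower genes and the medians therefore describe members rich in WT sites and cannot stand for all 81. Rpl3 had 34, 11 and 0 sites in ESC and 22, 1 and 0 in NPC, and Rplp0 36, 14 and 2 and 28, 6 and 1. The chaperones, which help proteins fold, held 0.466% in ESC WT and 0.253% in ΔZF1, and 0.485% and 0.224% in NPC. Of 17 compared in ESC 8 were lower and 0 higher (median -0.99), and of 15 in NPC 9 were lower and 0 higher (median -1.32). Hsp90b1, an endoplasmic reticulum chaperone, had 56, 8 and 3 sites in ESC and 43, 8 and 0 in NPC. Of the hnRNPs, which bind nascent transcripts, 7 of 18 were lower in ESC and 6 of 15 in NPC, with none higher. Hnrnpk had 55, 10 and 4 sites in ESC and 48, 9 and 2 in NPC. Translation factors had 8 of 41 lower in ESC and none higher, and 6 of 31 lower and 2 higher in NPC. Eif4g1 had 105, 45 and 15 sites in ESC and 75, 19 and 4 in NPC. Of the SR splicing factors 1 of 4 was lower in ESC and 0 of 3 in NPC. Actin and tubulin genes had 2 of 5 and 2 of 4 lower, though 60.4% of the sites of Tuba1a lay in the CDS of a second gene as well. Glycolysis genes had 0 of 10 and 2 of 9 lower.

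The remaining groups are given beside the shares over all genes, 6.35% higher and 7.61% lower in ESC and 4.96% and 7.19% in NPC. Among CHD and BAF remodellers 1 of 15 was higher in ΔZF1 in ESC and none of 14 in NPC, none was lower, and their share was 0.592% in ESC WT, 0.718% in ΔZF1 and 0.769% in noXL. Chd4, the NuRD remodeller, had 122, 51 and 32 sites in ESC and 74, 24 and 4 in NPC. Histone methyltransferases and acetyltransferases had 2 of 18 higher and 1 lower in ESC (median 0.39) and none of 15 past the limit in NPC. Kmt2d had 128, 117 and 93 sites in ESC. Of the cohesin genes none of 8 in ESC and none of 9 in NPC passed the limit, and Nipbl, the cohesin loader, had 104, 58 and 40 sites in ESC and 69, 57 and 29 in NPC. DEAD and DEAH box helicases had 5 of 35 lower and 0 higher in ESC and 1 of 27 lower and 1 higher in NPC. Zfp genes had 5 of 57 lower and 5 higher in ESC, near the shares over all genes, and 0 of 27 lower and 3 higher in NPC. Only 1 histone gene could be compared in ESC and 0 in NPC. Of the 13 groups, the ΔZF1 share lay between those of WT and noXL in 9 in ESC and in 9 in NPC. Between NPC WT and ESC WT none of 50 ribosomal protein genes, 18 chaperones or 18 hnRNPs passed the limit, beside 6.7% higher and 8.19% lower over all genes, which for groups of 18 would be few genes.

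**Figure D5:**
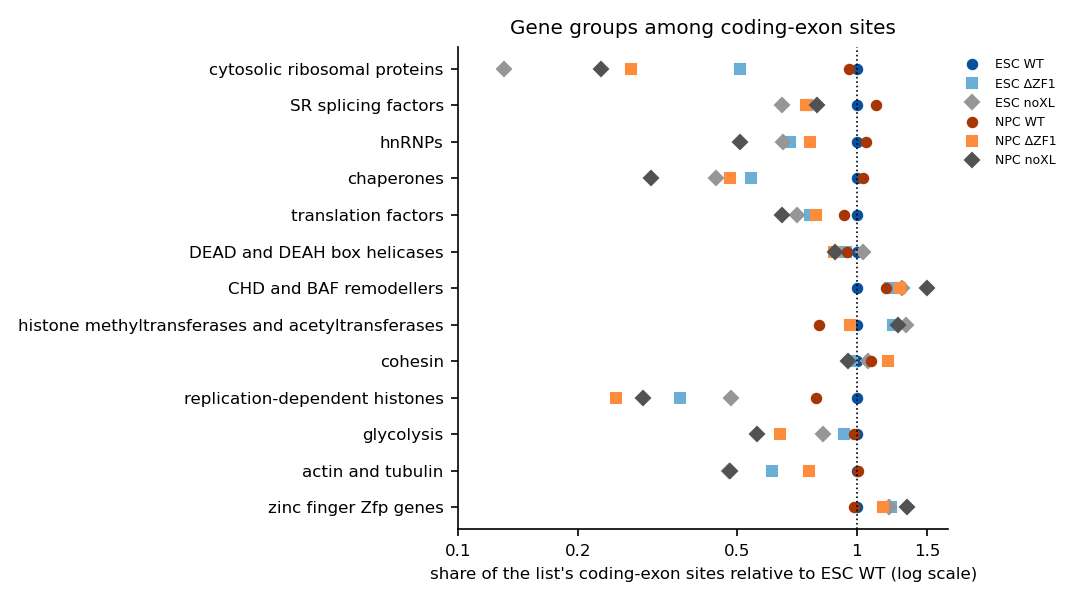
Share of each list's coding-exon sites held by 13 gene groups, divided by the share in ESC WT (x axis, log scale), with circles for WT, squares for ΔZF1 and diamonds for noXL. Ribosomal protein genes spread farthest to the left, at 0.102% in ESC noXL against 0.785% in WT, and CHD and BAF remodellers lie to the right of 1.

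Ctcf encodes the protein studied, and Podxl and Grb10 were followed by the study. The median number of coding-exon sites over genes with a site was 14 in ESC WT and 8 in NPC WT. Ctcf had 35 coding-exon sites in ESC WT, 3 in ΔZF1 and 1 in noXL, and 19, 5 and 0 in NPC. The rescue construct encodes CTCF too, and the part of its RNA in these sites was not tested. Podxl, a sialomucin of the cell surface, had 0, 1 and 1 in ESC and 20, 10 and 7 in NPC. Grb10, an imprinted adaptor of insulin receptor signalling, had none in ESC and 26, 18 and 9 in NPC.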

How the data were processed

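CTCF iCLIP2 was performed in 23 libraries of nuclear RNA from 6 groups. Following the study's methods, reads were demultiplexed with Flexbar, aligned to mm10 with STAR and deduplicated by UMI with UMI-tools, intervals were shifted with bedtools, and libraries of a group were merged for PureCLIP. Tool versions are not given in the sources used here. The authors deposited 1 list of single-nucleotide sites per group with a PureCLIP score and no read count, so depth is unknown. The handling of reads with several matches was not stated.

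Sites were placed on GENCODE M21 (release chosen here) by strand, in the order CDS, 3′ UTR, 5′ UTR, noncoding exon and intron, and on the best APPRIS transcript. Positions in 10 equal parts used complete CDSs of at least 300 nt. Composition was weighted by sites per transcript. Gene log2 ratios had a pseudocount of 1, at least 20 sites in both lists together, scaling to coding-exon totals and limits of 1 and -1. Intervals at 95% were Wilson (shares) or Newcombe (differences). Scripts ran in Python 3.11.15 with scipy 1.17.1, numpy 2.4.6, pysam 0.24.0 and pandas 2.3.3, and were tested on simulated data.

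The members and gene lists were chosen with earlier results of these data known. Named genes were the 5 with most sites per list, the 3 highest and 3 lowest ratios among genes with at least 50 sites, the 3 members of each group with most sites, the markers, and Ctcf, Podxl and Grb10, of which the text gives a selection. A gene that the rule names is not reported here. The rule per kb (CDS of at least 1000 nt and 30 sites) and the Rgs9 and Rspo1 counts were added after values were seen. Alternatives were a score minimum, merged sites, uridine sites only, equal gene weight, other scalings and site minimums, coding exons of a single gene, and, added after seeing the data, no chromosome 11 and no last nucleotides of exons.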

Additional observations from a re-analysis of the deposited data

Results flagged for a closer look

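The share of sites in coding exons moved in opposite directions in the 2 cell types. WT minus ΔZF1 was -1.19 percentage points in ESC and 8.36 percentage points in NPC, with 1 merged list per group, and whether the cell types differ was not tested. With only sites at or above the median score, the ESC value was 1.75 percentage points.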

How the results depend on the processing

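Of 212 alternative values for 36 results, 121 stayed within the counting interval or within 1.5 times the count, 88 moved farther and 3 changed sign as well, namely the coding-exon share of ESC WT against ΔZF1 under the score minimum and the first 10% of the CDS in NPC against ESC WT under the score minimum and under equal gene weight. Among the 121, the last 10% of the CDS in ESC WT against noXL, -0.0292 points with an interval that held 0, was 0.0471 with sites merged and 0.0995 with equal gene weight. At scores of 3.02 (the median) or more, the ratio of coding-exon sites was 1.96 (ESC WT/ΔZF1), 1.47 (NPC WT/ΔZF1), 2.34 (ESC WT/noXL), 2.54 (NPC WT/noXL) and 0.627 (NPC/ESC WT). The difference in coding-exon share (points) was 1.75 (ESC WT/ΔZF1), 10.9 (NPC WT/ΔZF1), 5.23 (ESC WT/noXL), 15.3 (NPC WT/noXL) and 7.83 (NPC/ESC WT). The difference in uridine share was 15.8 (ESC WT/ΔZF1), 14.7 (NPC WT/ΔZF1), 43.0 (ESC WT/noXL) and 50.9 (NPC WT/noXL). That in the first 10% of the CDS was 1.33 (ESC WT/ΔZF1), 1.24 (NPC WT/ΔZF1), 2.51 (ESC WT/noXL) and -0.195 (NPC/ESC WT). That in the last 10% was -0.407 (ESC WT/noXL). That in the third codon position was 1.96 (ESC WT/noXL) and 2.42 (NPC WT/noXL). With sites within 8 nt merged, the ratio of coding-exon sites was 1.64 (ESC WT/ΔZF1), 1.67 (NPC WT/ΔZF1), 2.52 (ESC WT/noXL), 2.64 (NPC WT/noXL) and 0.679 (NPC/ESC WT). The difference in coding-exon share (points) was -2.42 (ESC WT/ΔZF1), 8.02 (NPC WT/ΔZF1), 1.50 (ESC WT/noXL), 10.8 (NPC WT/noXL) and 7.36 (NPC/ESC WT). The difference in uridine share was 11.4 (ESC WT/ΔZF1), 35.0 (ESC WT/noXL) and 42.9 (NPC WT/noXL). With uridine sites only, the ratio of coding-exon sites was 2.36 (ESC WT/ΔZF1), 2.21 (NPC WT/ΔZF1), 7.67 (ESC WT/noXL), 8.95 (NPC WT/noXL) and 0.706 (NPC/ESC WT). The difference in coding-exon share (points) was -0.545 (ESC WT/ΔZF1), 10.97 (NPC WT/ΔZF1), 7.48 (ESC WT/noXL), 18.5 (NPC WT/noXL) and 8.61 (NPC/ESC WT). That in the third codon position was -1.13 (NPC WT/ΔZF1), 0.318 (ESC WT/noXL), 0.161 (NPC WT/noXL) and 0.541 (NPC/ESC WT). With each gene of at least 10 sites given equal weight, the difference in uridine share was 9.97 (ESC WT/ΔZF1), 34.0 (ESC WT/noXL), 41.2 (NPC WT/noXL) and 7.33 (NPC/ESC WT). That in the first 10% of the CDS was 1.23 (ESC WT/ΔZF1), 1.24 (NPC WT/ΔZF1), 1.96 (ESC WT/noXL), 2.46 (NPC WT/noXL) and -0.0142 (NPC/ESC WT). Without chromosome 11, chosen after seeing the data, the ratio of coding-exon sites was 1.83 (ESC WT/ΔZF1) and 1.84 (NPC WT/ΔZF1). Without the last nucleotides of exons, also chosen after seeing the data, the ratio of coding-exon sites was 1.91 (ESC WT/ΔZF1), 3.17 (ESC WT/noXL), 3.20 (NPC WT/noXL) and 0.645 (NPC/ESC WT). The difference in uridine share was 5.87 (NPC/ESC WT). That in the third codon position was 2.00 (ESC WT/noXL). With at least 10 sites per gene, genes past the limit were 503 higher and 601 lower of 5709 (ESC ΔZF1 over WT), 377 higher and 476 lower of 4757 (NPC ΔZF1 over WT), 628 higher and 658 lower of 5999 (NPC over ESC WT). With at least 50, genes past the limit were 47 higher and 58 lower of 1366 (ESC ΔZF1 over WT), 5 higher and 22 lower of 545 (NPC ΔZF1 over WT), 42 higher and 64 lower of 1478 (NPC over ESC WT). Without scaling, genes past the limit were 43 higher and 1865 lower (ESC ΔZF1 over WT), 8 higher and 1065 lower (NPC ΔZF1 over WT), 149 higher and 1290 lower (NPC over ESC WT). Scaled to all genic sites, genes past the limit were 40 higher and 341 lower (NPC ΔZF1 over WT), 233 lower (NPC over ESC WT). With the score minimum, genes past the limit were 129 higher and 195 lower of 1822 (ESC ΔZF1 over WT), 71 higher and 131 lower of 984 (NPC ΔZF1 over WT), 88 higher and 162 lower of 1945 (NPC over ESC WT). The cause was not tested. No paired analysis was possible because PureCLIP ran on merged libraries, and no replicate could be left out for the same reason. Each group is 1 list from 1 clone and its read depth is unknown here, so depth, RNA level and binding cannot be told apart in list sizes and ratios of counts. Genes with few sites have wide counting intervals.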
